A study of Mus musculus with 2 samples.

Results

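The Hox genes encode homeodomain transcription factors and lie in 4 clusters, HoxA, HoxB, HoxC and HoxD, on separate chromosomes. They were taken as every non-control probe whose gene name in the scanner files is Hox, a cluster letter and a number, which gave 39 of 31870 gene names and 44 of 39429 probes: 11 HoxA, 10 HoxB, 9 HoxC and 9 HoxD genes. A probe was kept where the channel of at least 1 group was well above background on both arrays. Of the 39 genes 36 had such a probe, and these stood among the 21097 genes tested.

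The arrays compared ureters of male mouse embryos of the NMRI stock at stage E13.5. Tbx2-GOF embryos had the genotype Tbx18(cre/+);Hprt(Tbx2/Y), that is cre at 1 Tbx18 allele together with Tbx2 inserted at Hprt. Control embryos had the genotype Tbx18(+/+);Hprt(Tbx2/Y): they carried the same Hprt allele without cre, and 2 normal Tbx18 alleles. Tbx2 encodes a T-box repressor, and the comparison asks which transcripts differ once cre, driven by the Tbx18 promoter, has acted. Tbx18 marks the undifferentiated ureteric mesenchyme. Cre and the number of normal Tbx18 alleles differ together between the genotypes, so their parts cannot be told apart. Tbx18 itself had log2 ratios of -0.31 on array 1 and -0.59 on array 2 (limma adjusted p = 0.266). There were 2 two-colour arrays, each holding 1 extract of each genotype. The Tbx2-GOF extract carried AlexaFluor647 on array 1 and AlexaFluor555 on array 2. Whether separate or pooled embryos gave the extracts is not in the labels. Each p-value therefore speaks only of spread between arrays 1 and 2, possibly a technical one. That spread is mostly not the gene's own: limma's eBayes step used 6.36 prior degrees of freedom, estimated over all genes tested, beside 1 residual one. Intervals can thus be wide where a gene's own spread is small. Hoxb4 had a standard deviation of 0.0016 between arrays and a standard error of 0.128. Tbx2 itself had a log2 ratio of 0.04 on array 1 and 0.56 on array 2 (limma adjusted p = 0.711), so its own probe did not pass the test.

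Hox genes are arranged along each cluster in the order in which they act along the body axis. Paralogue numbers run from 1, expressed farthest forward, to 13, expressed last and farthest back, and genes with the same number in different clusters descend from 1 ancestor and often act redundantly. Their proteins bind DNA together with the TALE homeodomain proteins PBX and MEIS. In the urogenital system the paralogue 11 genes are required together for kidney formation, and the paralogue 13 genes act in the lower urinary and genital tract.

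Most Hox genes were detected in the ureter, from both ends of the clusters. In 35 of the 36 genes both genotypes were well above background on both arrays. The exception was Hoxb13, above background in Tbx2-GOF only. The 3 genes without a kept probe were Hoxb1, known from hindbrain rhombomeres, and the posterior genes Hoxc12 and Hoxc13, the latter a regulator of hair and nail. These 3 were dim in both genotypes on each array, and no value is read from them. All 12 genes of the ureteric mesenchyme list and all 12 of the urothelium list had a kept probe, as had 21097 of all 31870 genes. So had all 15 neural and Schwann markers and all 7 liver and plasma genes, so detection alone does not set the labelled tissue apart.

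Hox genes were higher more often than lower in Tbx2-GOF ureters, and the difference lay along clusters. The median log2 ratio of Tbx2-GOF over control was 0.17 over the 36 genes, with 0.26 on array 1 and 0.18 on array 2, against 0.00 over all genes tested. On both arrays 19 genes were higher (26.1% of all genes tested were) and 6 were lower (25.1%), while 11 had opposite signs (48.8%). By limma's test 1 of the 36, Hoxb13, passed after Benjamini-Hochberg adjustment over all genes, and it rose; 0.64% of all genes passed, and 0.36% passed upward. Hoxb13 entered the test only through the Tbx2-GOF channel, the one in which it was high, and with both channels required above background it left the test and 0 Hox genes passed, so the call lends the group no support. At an unadjusted p under 0.05 there were 15 higher Hox genes (5.63% of all genes) and 0 lower ones (3.71%), beside 9.34% of all genes in either direction. These 15 lay in HoxB (7), HoxD (7) and HoxC (1), with 0 in HoxA. Hoxb13 is counted in the 7 of HoxB and in the 19 above. With both channels required above background, 14 Hox genes were higher at this p (5.49% of all genes). Under that filter 18 were higher on both arrays (25.9%). Fitted ratios of at least 1.5-fold on both arrays were found in 2 Hox genes, Hoxb8 and Hoxb13, against 0.825% of all genes, but the control level of Hoxb13 is only bounded, and that bound lies below this size. In bulk tissue, fewer or more cells of a type and less or more RNA per cell cannot be told apart.

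**Figure D1:**
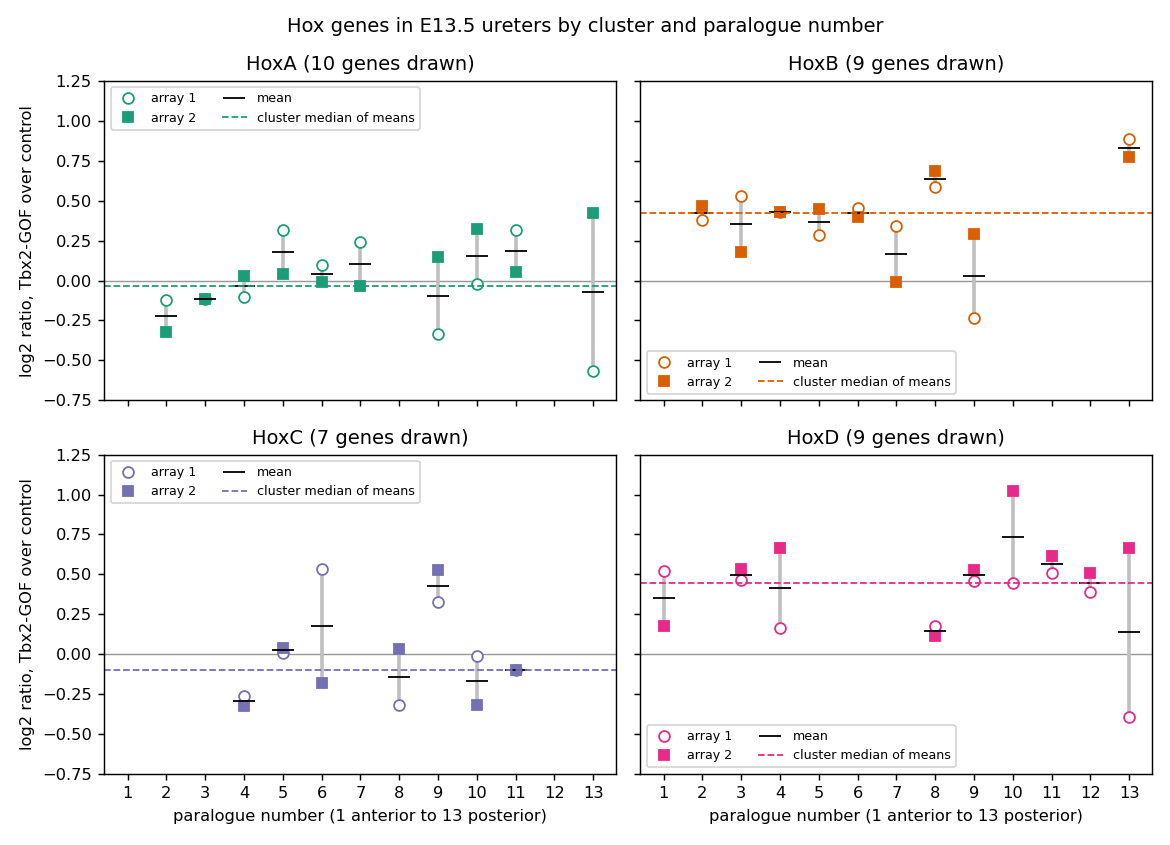
Log2 ratios of Tbx2-GOF over control (vertical axis) for 35 of the 36 measured Hox genes by paralogue number (horizontal axis), 1 panel per cluster. Open circles are array 1, filled squares array 2, short bars their mean and dashed lines the cluster median of the means over all measured genes, which lies at 0.42 in HoxB and 0.45 in HoxD, and at -0.04 in HoxA and -0.10 in HoxC.

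The plot by cluster and paralogue number shows the ratios of HoxB and HoxD mostly above 0 at all positions and those of HoxA and HoxC around 0. Some of the latter genes were dim. Mean control log2 signals were 7.11 for Hoxc5, 7.87 for Hoxc8, 8.16 for Hoxa6 and 8.55 for Hoxc11. The dimmest HoxD gene, Hoxd1, was at 9.12. What dimness contributed to these ratios was not tested. The HoxD cluster (mm9 chromosome 2, probes from 74509248 to 74603059) reached a median of 0.45 (array 1, 0.45; array 2, 0.53). Of its 9 genes 8 were higher on both arrays, 0 were lower on both, and 7 had an unadjusted p under 0.05. HoxB (chromosome 11, 96057854 to 96228510) reached a median of 0.42, and 0.43 on either array. Of its 9 measured genes 7 were higher on both arrays, Hoxb13 among them, and 0 lower on both. With both channels required above background, which leaves Hoxb13 out, the HoxB median was 0.40. HoxA (chromosome 6) lay at a median of -0.04, from -0.06 on array 1 and 0.03 on array 2, and 2 of 11 genes were higher on both and 3 lower on both. HoxC (chromosome 15, 102759058 to 102867272) lay at a median of -0.10, from -0.01 and -0.10, and 2 of 7 measured genes were higher on both and 3 lower on both.

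Genes of the same paralogue number were also compared between clusters. That number stands in for axial position, which was not measured. HoxD and HoxA have 7 measured paralogue numbers in common, and the HoxD gene had the higher log2 ratio on both arrays in 7 of 7. The median gap between them was 0.47 on array 1 and 0.56 on array 2, and in the mean of the arrays it ran from 0.21 to 0.61. These values use the tested probe of each gene. The other kept probe of Hoxd11 gave 0.15 on array 1, below Hoxa11 at 0.31. The HoxB gene was above its HoxA paralogue on both arrays in 7 of 8 numbers, with median gaps of 0.43 and 0.37. The 7 include Hoxb13, which entered the test only through the Tbx2-GOF channel. With both channels required above background, which leaves Hoxb13 out, the count was 6. Under median centring it was also 6. Against HoxC, the HoxD gene was above on both arrays in 4 of 5 numbers and the HoxB gene in 3 of 5. HoxD and HoxB did not order consistently: HoxD was the higher on both arrays in 1 of 5 numbers, with median gaps of -0.26 and 0.23. HoxC was above HoxA on both arrays in 1 of 6.

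Axial position separated the genes less than cluster did, in the mean and on each array. The anterior genes (paralogue numbers 1 to 3) had a median log2 ratio of 0.35, the central ones (4 to 8) 0.17 and the posterior ones (9 to 13) 0.17. These medians were not stable between arrays: 0.38 and 0.18 for the anterior genes, 0.24 and 0.04 for the central and 0.15 and 0.47 for the posterior ones. Of the sum of squares of the 36 mean ratios, 55.0% lay between the 4 clusters and 2.14% between the 3 axial groups. On array 1 alone these shares were 31.7% and 1.77%, and on array 2 alone 50.8% and 13.8%. Across the 36 genes, Spearman's rho of the mean ratio with paralogue number was 0.18, with -0.08 on array 1 and 0.35 on array 2. Within HoxA alone it was 0.61 over 11 genes. In HoxB, HoxC and HoxD rho was 0.10, 0.14 and 0.02. Genes of a cluster share regulatory DNA and all 36 share the same 2 arrays, so these are descriptions without a test. The mean ratio also had a rho of 0.32 with the brightness of the gene's probe, whose part in the result was not tested.

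The Hox gene that passed the test was Hoxb13 (chromosome 11, 96057854 to 96057913), the most posterior member of HoxB, known from the prostate, the hindgut and the tail bud. Its normalised log2 signal was 6.04 in control and 6.93 in Tbx2-GOF on array 1, and 6.26 and 7.03 on array 2. The Tbx2-GOF values lay above the control values without overlap, but this is a very dim probe, which neither array placed well above background in the control channel. The ratio is therefore given as a bound, from a mean of 6.98 in Tbx2-GOF and a floor of 6.51, the lowest signal well above background. The measured mean in control was 6.15. By this bound Hoxb13 was at least 1.39-fold higher in Tbx2-GOF. The limma adjusted p of 0.0481 belongs to the fitted ratio and does not test the bound. The fitted log2 ratio, 0.83 as processed here, was 1.97 at offset 0, 2.99 from the software's processed signals and 0.51 from the authors' value table. The limma call was lost from processed signals (adjusted p = 0.0578), under median centring (0.501) and from the authors' value table (0.319) and when every kept probe was tested on its own, where 0 of 39 Hox probes passed (0.419% of all probes did) and 15 were higher at an unadjusted p under 0.05 (5.12% of all probes).

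**Figure D2:**
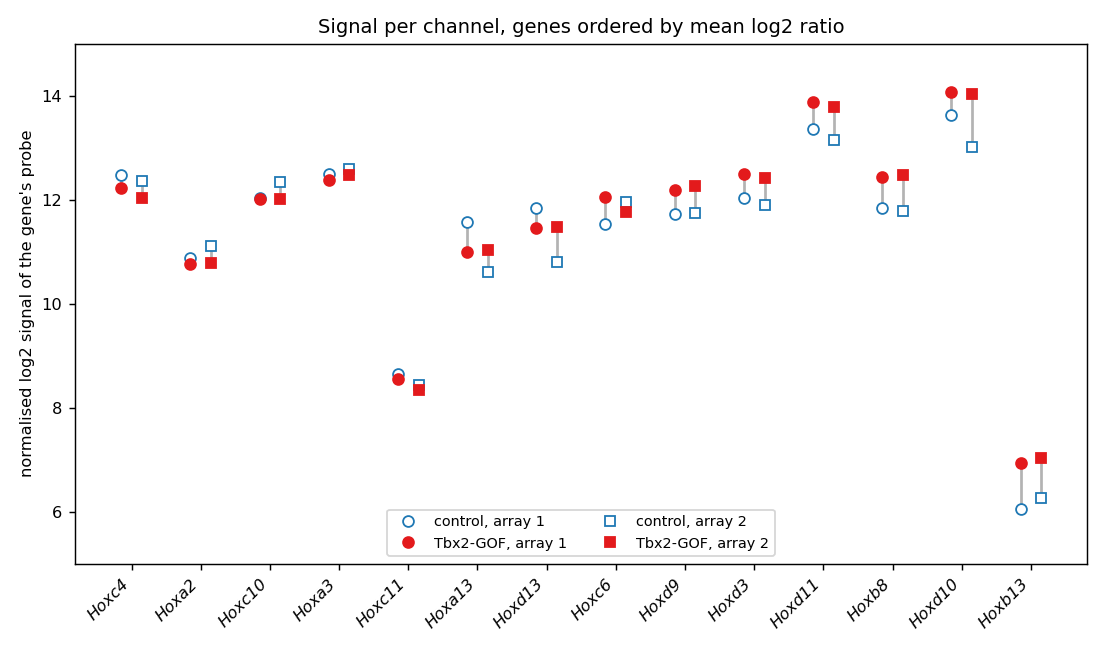
Normalised log2 signal (vertical axis) of the probe of 14 Hox genes, in control (open blue) and Tbx2-GOF (red), with circles for array 1 and squares for array 2. The genes are among the 6 lowest and 6 highest by mean log2 ratio with the same sign on both arrays and the 3 with the largest gap between arrays, ordered by mean ratio; levels compare within a gene only, and Hoxd13 and Hoxa13 show red below blue on array 1 and above it on array 2.

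HoxD genes were higher at neighbouring positions along the cluster. Hoxd10 (chromosome 2, 74532280 to 74532339), which patterns the hindlimb and lumbar motor neurons, had signals of 13.63 in control and 14.07 in Tbx2-GOF on array 1, and 13.01 and 14.03 on array 2. Tbx2-GOF was the higher on both arrays, by 2.03-fold on array 2 and 1.36-fold on array 1. Its log2 ratio was 0.73 ± 0.41 (SD, n = 2 arrays, as for every ± here; 95% interval 0.34 to 1.12; limma adjusted p = 0.138). Hoxd11 (74522136 to 74522195), which acts with Hoxa11 in the kidney and forearm, had signals of 13.37 and 13.88 on array 1 and 13.16 and 13.78 on array 2. The genotypes did not overlap, and the ratio was 0.56 ± 0.07 (95% interval 0.26 to 0.87; limma adjusted p = 0.142). The other kept probe of Hoxd11 (74525014 to 74525073), gave 0.15 and 0.39.

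Hoxd9 (74537676 to 74537735) had signals of 11.73 and 12.18 on array 1 and 11.74 and 12.27 on array 2, so the control signals nearly coincided and both Tbx2-GOF signals lay above them. Its log2 ratio was 0.49 ± 0.05 (limma adjusted p = 0.189). Hoxd3 (74585787 to 74585846), an anterior gene of the neck vertebrae, showed 12.04 and 12.50, then 11.89 and 12.43, and a ratio of 0.50 ± 0.05 (limma adjusted p = 0.187). Among the others, Hoxd12 was at 0.39 and 0.51 on the 2 arrays, Hoxd4 at 0.16 and 0.66 and Hoxd1 at 0.52 and 0.18. Hoxd8 was the HoxD gene nearest to 0 with the same sign on both arrays, at 0.17 and 0.11. Hoxd13 broke the pattern and is described with the paralogue 13 genes.

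Promoter windows are shown for paralogue pairs of which the HoxD member had the higher ratio, Hoxd9 with Hoxa9 and Hoxd10 with Hoxa10. Each is the 250 bases before the RefSeq start on GRCm38.p6, printed 5′ to 3′ on the gene's strand: chr2:74697513-74697762 (+), chr6:52227371-52227620 (-), chr2:74691641-74691890 (+) and chr6:52234940-52235189 (-), the last for 1 of 2 Hoxa10 starts. Capitals mark matches, on either strand, to GGTGTGA (the T-box element), to CCAAT (the CCAAT box), to TATAAA (the TATA box) or to TGATTNAT (a PBX-HOX site).
Hoxd9: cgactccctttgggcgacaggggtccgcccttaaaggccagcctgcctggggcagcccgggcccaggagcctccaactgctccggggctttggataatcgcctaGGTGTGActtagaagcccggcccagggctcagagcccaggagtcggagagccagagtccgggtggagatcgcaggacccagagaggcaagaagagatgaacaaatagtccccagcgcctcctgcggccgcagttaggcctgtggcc
Hoxa9: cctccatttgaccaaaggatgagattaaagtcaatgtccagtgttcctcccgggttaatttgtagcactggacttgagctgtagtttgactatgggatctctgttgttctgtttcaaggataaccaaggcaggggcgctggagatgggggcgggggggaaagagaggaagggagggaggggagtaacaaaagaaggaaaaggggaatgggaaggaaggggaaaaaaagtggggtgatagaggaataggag
Hoxd10: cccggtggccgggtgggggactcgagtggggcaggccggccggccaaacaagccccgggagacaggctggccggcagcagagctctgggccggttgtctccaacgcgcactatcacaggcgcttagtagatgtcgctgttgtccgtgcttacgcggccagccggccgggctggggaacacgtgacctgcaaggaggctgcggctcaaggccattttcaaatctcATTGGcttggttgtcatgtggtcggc
Hoxa10: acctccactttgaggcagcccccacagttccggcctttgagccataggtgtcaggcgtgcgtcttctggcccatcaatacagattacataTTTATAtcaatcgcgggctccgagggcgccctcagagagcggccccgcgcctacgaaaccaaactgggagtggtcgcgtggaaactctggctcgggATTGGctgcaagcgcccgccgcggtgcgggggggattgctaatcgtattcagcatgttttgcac
The T-box element was found in 1 of the 24 windows of the 22 Hox genes with an entry, that of Hoxd9, from 146 to 140 bases before the start, against 3.33% of all 32851 windows. CCAAT stood in 14 of the 24 windows (33.8% of all), TATAAA in 4 (12.4%) and TGATTNAT in 2 (2.82%), those of Hoxd11 and Hoxa2. None of the motifs contains another. A match is a string of letters in a window, and no binding was measured.

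HoxB genes from paralogue 2 to 8 were higher at similar sizes, apart from Hoxb7. Hoxb8 (chromosome 11, 96146576 to 96146635), a trunk gene also active in blood progenitors, had signals of 11.85 in control and 12.44 in Tbx2-GOF on array 1, and 11.79 and 12.47 on array 2. The control signals lay close together and both Tbx2-GOF signals were above them, 1.56-fold in the mean. Its log2 ratio was 0.64 ± 0.07 (95% interval 0.33 to 0.94; limma adjusted p = 0.103). The ratios of Hoxb2, Hoxb4 and Hoxb6 were nearly equal, at 0.43 ± 0.06, 0.43 ± 0.00 and 0.42 ± 0.04 (limma adjusted p = 0.263, 0.256 and 0.262), and Hoxb5 was at 0.37 ± 0.12. Hoxb3 was at 0.53 and 0.18. Its dimmer probe gave 0.11 and 0.37, and the array design lists the Hoxd3 transcript among the targets of that probe, so signal from the paralogue cannot be separated there.

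Hoxb7, whose promoter is widely used to drive transgenes in the ureteric bud epithelium, was at 0.34 on array 1 and -0.01 on array 2, a mean of 0.17 with a 95% interval from -0.17 to 0.50. Hoxb9 had opposite signs, -0.24 and 0.29. These were the HoxB genes that were not higher on both arrays. Skap1, which flanks HoxB, was at 0.60 and 0.48 (limma adjusted p = 0.156).

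Mean HoxA ratios ran from -0.22 to 0.18, though Hoxa13 and Hoxa9 differed between arrays, and none of the 11 genes had an unadjusted p under 0.05. Hoxa2, which sets the identity of the hyoid arch, was slightly lower on both arrays, at -0.12 and -0.32, as was Hoxa3, needed for thymus and parathyroid, at -0.12 and -0.11. In signal, Hoxa2 stood at 10.89 in control and 10.77 in Tbx2-GOF on array 1, and at 11.11 and 10.79 on array 2, so both Tbx2-GOF signals lay below both control signals by a small margin. The 95% intervals of both spanned 0 (-0.54 to 0.09 and -0.42 to 0.19). Among the central members only Hoxa5, a gene of the lung and diaphragm, was higher on both arrays, at 0.31 and 0.04. Hoxa4, Hoxa6 and Hoxa7 had opposite signs within -0.10 to 0.24, and Hoxa9 was at -0.34 and 0.14 and its other probe was an outlier spot on array 2.

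In HoxC, Hoxc4 (chromosome 15, 102867213 to 102867272) had the lowest mean of all Hox genes. Its signals were 12.48 in control and 12.22 in Tbx2-GOF on array 1, and 12.36 and 12.03 on array 2. Both Tbx2-GOF signals were below both control signals, and the ratio was -0.29 ± 0.04 (95% interval -0.59 to 0.01; limma adjusted p = 0.562). Hoxc9, a determinant of thoracic motor neurons, stood apart from its cluster at 0.33 and 0.53 (mean 0.43, unadjusted p = 0.0139, limma adjusted p = 0.278). Hoxc5 was at 0.01 and 0.04, Hoxc8 at -0.32 and 0.03 and Hoxc6 at 0.54 and -0.18, which is among the 3 largest gaps between arrays.

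By the probes tested, the paralogue 10 and 11 genes, those nearest to kidney development, had higher ratios in HoxD than in HoxA and HoxC. Hoxa10, required in the uterus, was at -0.02 and 0.32 (95% interval -0.18 to 0.49) and Hoxc10 at -0.01 and -0.32 (-0.49 to 0.16), beside 0.45 and 1.02 for Hoxd10. Hoxa11 was at 0.31 and 0.06 (-0.14 to 0.51) and Hoxc11 at -0.10 on each array (-0.40 to 0.20), beside 0.51 and 0.62 for Hoxd11. The other kept probe of Hoxd11 gave 0.15 and 0.39, so on array 1 it lay below Hoxa11. The intervals of Hoxa10 and Hoxa11 reach ratios that HoxD genes had, so a difference of that size in them was not bounded away. Hoxa11os, the antisense transcript of Hoxa11, was at 0.09 and 0.22. Genes known to work with the HOX11 proteins in the metanephros were split: 2 of 10 measured genes passed the test, both upward (0.36% of all genes), and 0 downward (0.28%). Six2, which keeps nephron progenitors undifferentiated, was at 1.85 (limma adjusted p = 0.00624) and Gdnf, the ligand of RET, at 1.53 (0.0186), and the list median was 0.15, with -0.01 and 0.28 on the 2 arrays. Of the 10 genes, 4 were higher on both arrays (26.1% of all genes) and 4 had opposite signs (48.8%). The 2 that were lower on both (25.1%) were Sall1, at a mean of -0.46, and Osr1, at -0.22.

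Of the 3 measured paralogue 13 genes, Hoxa13 and Hoxd13 had opposite signs on the 2 arrays. Hoxa13 (chromosome 6, 52208980 to 52209039) had signals of 11.57 in control and 11.00 in Tbx2-GOF on array 1, and of 10.60 and 11.03 on array 2. Hoxd13 (chromosome 2, 74509248 to 74509307) had 11.85 and 11.46 on array 1, and 10.81 and 11.47 on array 2. In both genes the Tbx2-GOF signals of the 2 arrays were nearly equal while the control signal was high on array 1 and low on array 2. Such a drop in control was not particular to paralogue 13. Control stood at 11.91 and 11.16 in Hoxb9 (Tbx2-GOF 11.67 and 11.45) and at 13.63 and 13.01 in Hoxd10 (14.07 and 14.03). In Hoxc6 the control signal was instead the higher on array 2, at 11.53 and 11.95. The log2 ratios were -0.57 and 0.42 for Hoxa13 and -0.39 and 0.66 for Hoxd13, the 2 largest gaps between arrays among the Hox genes. The other Hoxa13 probe followed with -0.45 and 0.22. Dye orientation and extract both differ between the arrays and cannot be told apart here. The flanking homeobox gene of HoxA, Evx1, known from the caudal end of the embryo, was at -0.14 and 1.12. In paralogue number 13, then, 2 of 3 measured genes were lower on array 1 and higher on array 2, and Hoxb13 was higher on both.

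**Figure D3:**
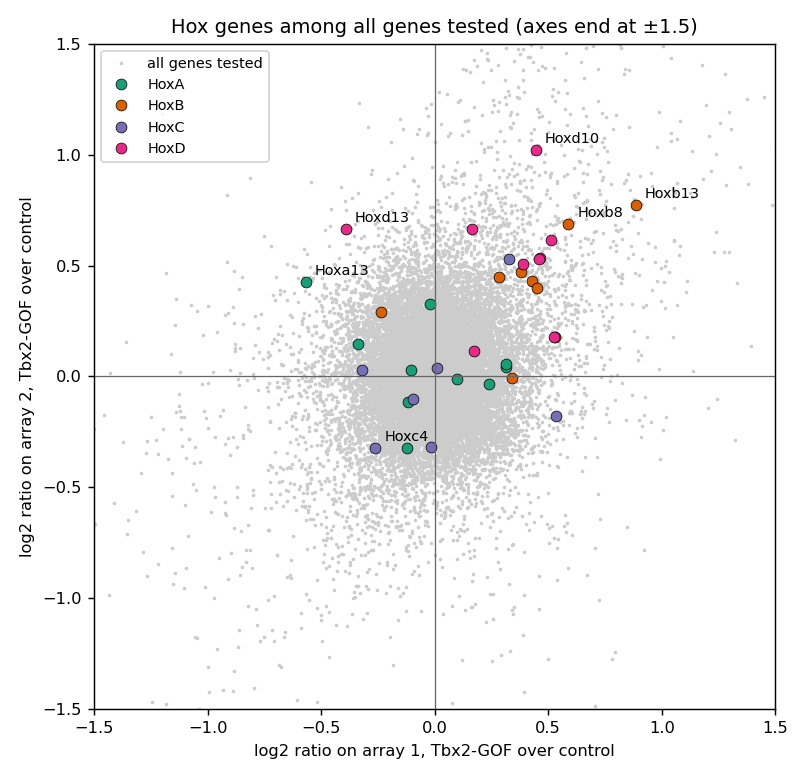
Log2 ratio of Tbx2-GOF over control on array 1 (horizontal axis) and array 2 (vertical axis) for all genes tested (grey) and 35 of the 36 Hox genes coloured by cluster; genes beyond 1.5 on either axis are not drawn. HoxB and HoxD genes gather in the upper right quadrant, and Hoxa13 and Hoxd13 lie at the upper left.

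Across the 36 genes the 2 arrays had a Pearson's r of 0.42, against 0.31 over all genes tested; genes are not independent replicates, and members of a cluster least of all. The sign was shared by both arrays in 69.4% of Hox genes, against 51.2% of all genes. Other probes lying between the outermost Hox probes of the clusters numbered 17, of which 13 were kept; 5 of the 13 were higher on both arrays, 3 were lower on both, and 0 were called (limma on every kept probe; 1 of the 13 had an unadjusted p under 0.05). That 1 was ENSMUST00000114435, named after its values were seen, at -0.36 and -0.51, whose probe overlaps the position of the Hoxa3 probe. Hoxd3os1, a noncoding transcript in HoxD, was at 0.49 and 0.15.

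Genes that work with Hox genes or regulate the clusters had list medians near 0. Of 9 TALE cofactors 0 passed the test in either direction, and 0 had an unadjusted p under 0.05; the median was 0.06. Pbx4 was at 0.31 and Meis1 at -0.30 (limma adjusted p = 0.547 and 0.545). Of 14 measured regulators of the clusters, among them Polycomb and trithorax genes, 0 passed, the median was 0.01 and Rnf2, a Polycomb ubiquitin ligase, was farthest from 0 at -0.32, followed by Kdm6b, an H3K27 demethylase, at 0.22. Cdx2 and Cdx4, which activate posterior Hox genes in the early embryo, were not above background. The 9 measured flanking genes had a median of 0.00, with 0 passing. Retinoic acid, which induces anterior Hox genes, is made and broken down by enzymes of which 1 passed: Cyp26b1, a degrading enzyme, rose by 0.94 (limma adjusted p = 0.0379), while Aldh1a2, a synthesising one, was at 0.71 (0.101), and the median of the 14 measured genes was 0.02. That median lies between members on both sides of 0, with 3 higher (5.63% of all genes) and 2 lower (3.71%) at an unadjusted p under 0.05. Chosen after their values were seen, Aldh1a3, another synthesising enzyme, was at 0.70 (limma adjusted p = 0.0858) and Cyp26a1, another degrading one, at -0.61 (0.122).

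Other homeobox genes of the ANTP class, to which the Hox genes belong, were higher by nearly as much as HoxB and HoxD. Of 14 measured genes outside the clusters 11 were higher on both arrays (26.1% of all genes) and 0 lower on both, and the median was 0.39, from 0.28 on array 1 and 0.42 on array 2. The other 8 of the 22 listed genes were not above background. Dlx1, a gene of forebrain interneurons and branchial arches, passed the test at 1.32 (limma adjusted p = 0.0269), the 1 call in the list, and Dlx2 was at 1.02 (0.104).

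**Figure D4:**
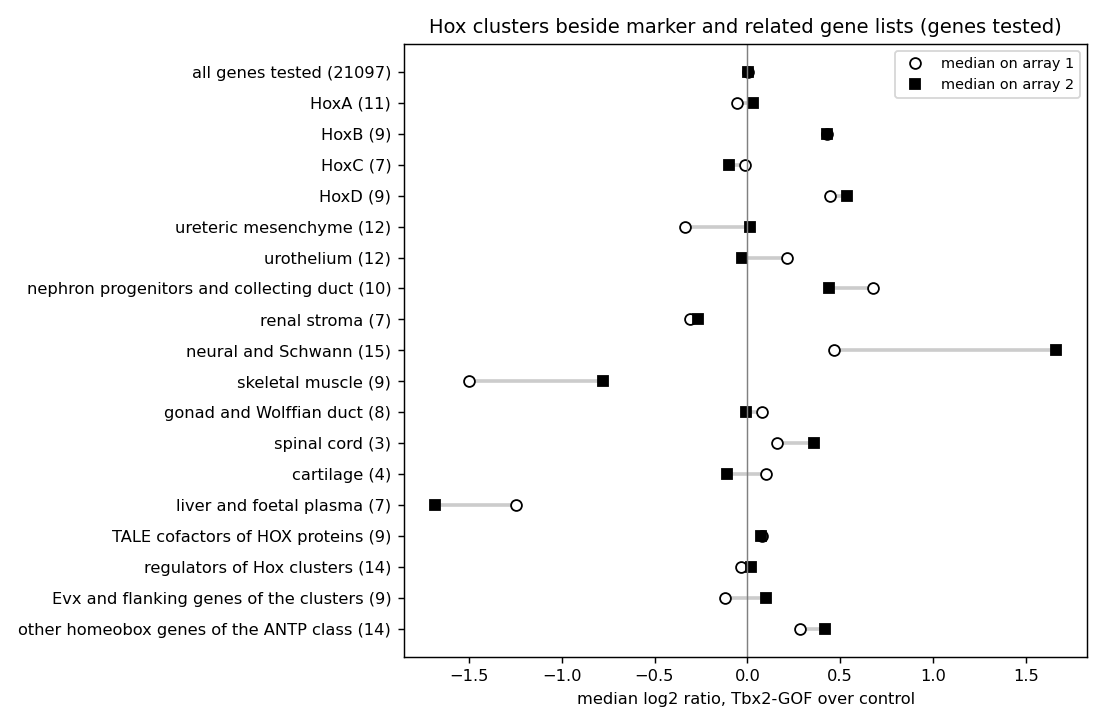
Median log2 ratio of Tbx2-GOF over control (horizontal axis) on array 1 (open circles) and array 2 (filled squares) for the Hox clusters, all genes tested, marker lists of cell types and lists of Hox-related genes, with the number of genes tested in brackets. The HoxB and HoxD medians differ little between arrays, whereas the neural and Schwann list lies at 0.47 and 1.66.

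Markers of other cell types differed in the same extracts, and Hox genes are expressed in several of these cell types. Over all genes tested, 26.1% were higher and 25.1% lower on both arrays, and 0.36% passed the test upward. All 15 neural and Schwann markers were higher on both arrays, with Fabp7 (1.57) and Th (1.34) past the test and list medians of 0.47 on array 1 and 1.66 on array 2, while HoxB stood at 0.43 and 0.43 and HoxD at 0.45 and 0.53. Spinal cord markers were mostly missing: Lhx3, Mnx1, Olig2 and Pax6 were not above background, and the 3 measured ones were at 0.04 to 0.77. Nephron and collecting duct markers had medians of 0.67 and 0.44, with 7 of 10 higher on both arrays. Skeletal muscle markers were lower on both arrays in 9 of 9 measured genes (median -0.97; Myf5 was not above background), and liver and plasma genes in 7 of 7 (-1.24 and -1.68). Ureteric mesenchyme markers had medians of -0.34 and 0.01, and renal stroma markers of -0.31 and -0.27. Urothelium markers stood at 0.22 and -0.03, with 4 of 12 higher on both arrays and 3 lower on both. Upk3a, a structural protein of the urothelial plaque, fell by 0.86 on the log2 scale (limma adjusted p = 0.045), while Upk2, another plaque protein, was at 0.84 (0.0715) and Gata3 at 0.73 (0.0728). The gonad and Wolffian duct list (8 of 9 genes measured) had a median of 0.06, with 3 genes higher and 3 lower on both arrays. Lhx9, at -0.91, passed the test (limma adjusted p = 0.0398), as 0.28% of all genes did downward, while Emx2 was at 0.43 (0.258). The cartilage list (4 of 5) had a median of 0.07, with 1 gene higher and 1 lower on both arrays. The part of these cell types in the Hox ratios was not tested.

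**Figure D5:**
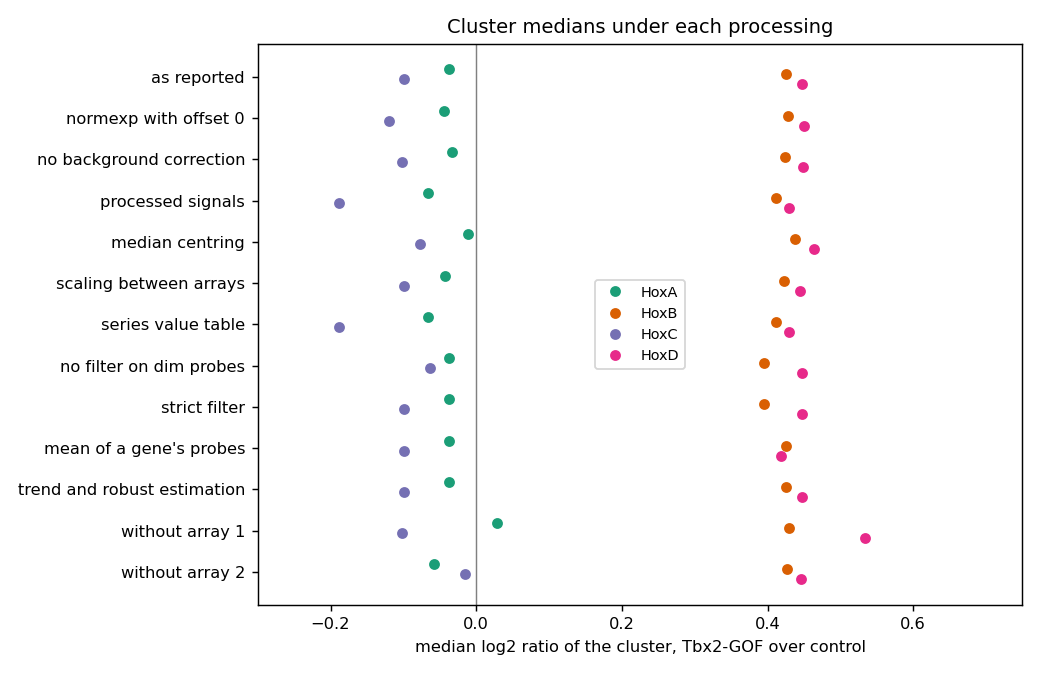
Median log2 ratio of Tbx2-GOF over control (horizontal axis) in each Hox cluster under each processing setting (vertical axis), including each array alone. In the settings that use both arrays HoxB lies between 0.40 and 0.44, HoxD between 0.42 and 0.46, HoxA between -0.07 and -0.01 and HoxC between -0.19 and -0.06.

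The order of the clusters held in the settings tried. With both arrays in use, the HoxB and HoxD medians lay above those of HoxA and HoxC under each of the 10 alternatives, and the HoxD gene was above its HoxA paralogue on both arrays in 7 of 7 numbers under each. For HoxB over HoxA the count varied from 6 to 8. The single-gene calls did not hold in that way, as described for Hoxb13.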

How the data were processed

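Total RNA of E13.5 ureters was amplified, labelled and hybridised to 2 dye-swapped arrays, per the labels' protocols. The submitters' processing notes name Agilent Feature Extraction, version 10.7.3.1. Mean spot and median background signals are intensity values as scanned, per the file headers; processed signals are intensity after its background subtraction and dye normalization, and its log10 ratio is red over green, per the file headers. The deposited value table holds a score, a signed fold ratio of unstated scale, centring and direction: positive was Tbx2-GOF over control, since 99.2% and 98.8% of probes above background matched the software's turned ratio within 0.01 on the log10 scale. Its median was 1 on each array, and whether it was centred further is unknown.

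Here, limma 3.58.1 in R 4.3.3 applied normexp (offset 50) and loess (span 0.3, control and flagged spots at weight 0), with no scaling between arrays. Ratios were turned by the labelled dyes. A probe counted as above background when at least 50% of its unflagged spots did. The brightest of a gene's kept probes was tested by lmFit and eBayes, two-sided, at an adjusted p under 0.05; "rose" is used only past it. Channel levels followed Aquantile normalization. Scripts were tested on simulated data. Flags marked 209 and 391 spots, and no spot was saturated. The 2 arrays limit the precision.

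Symbols were updated through RefSeq (GRCm38.p6) for 67.0% of probes; coordinates of probes are on mm9. Members, the 16 gene lists and the alternatives were chosen with earlier results of these data known. Named were genes past the test, the 6 highest and 6 lowest with 1 sign, paralogues 10 and 11, the 3 largest gaps between arrays, and from Hox-related lists the 2 farthest from 0; other Hox genes are given by their ratios. The result of 1 member is not reported here on its own.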

Additional observations from a re-analysis of the deposited data

How the results depend on the processing

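Over all genes, 135 calls became 0 from processed signals, 0 under median centring and 0 from the authors' value table, 313 with scaling between arrays, 276 with no filter on dim probes and 211 with the mean of a gene's probes. The Hox calls went from 1 to 0 in these settings without calls and under the strict filter, which left Hoxb13 out; at an unadjusted p under 0.05 the higher Hox genes numbered 12 to 15 over the alternatives, and 1 Hox gene was lower with no dim filter and with trended, robust estimation. Hoxb13 was at 2.99, 0.83 and 0.51 in the settings other than the strict filter that lost its call; the cause was not tested. The HoxB median, 0.42 as reported, was 0.43 with offset 0, 0.41 from processed signals and from the value table, 0.44 with median centring, 0.42 with scaling, and 0.40 without a dim filter and with the strict one. The HoxC median was -0.19 from processed signals and from the value table.

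Left with 1 array, which allows no test, the Hox median was 0.18 to 0.26, the anterior one 0.18 to 0.38, the central one 0.04 to 0.24 and the posterior one 0.15 to 0.47. The HoxA median ranged from -0.058 to 0.029, HoxB from 0.43 to 0.43, HoxC from -0.10 to -0.015 and HoxD from 0.45 to 0.53. The signs of Hoxa10 (-0.019 to 0.32), Hoxc6 (-0.18 to 0.54), Hoxa13 (-0.57 to 0.42) and Hoxd13 (-0.39 to 0.66) depended on the array. Of 169 values of named genes with both arrays, 166 kept direction and side of the threshold. The 3 that did not were all of Hoxb13, the only named Hox gene past the test. The other named Hox genes had not passed as processed here, so their staying on that side says little about robustness. The cluster medians were summarised under these settings after the data were seen. No paired analysis was possible because each array already pairs 1 extract of each genotype, and the ratio is the paired value.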
